A study of Mus musculus with 4 samples.

Results

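Methylated regions that lay wholly inside introns were described in pancreatic islets of WT and βRapKO mice, and there were 55410 of them among 180857 methylated regions on the autosomes. A region was obtained by joining the peaks of 4 MeDIP-seq libraries wherever they overlapped by at least 1 bp. It was kept as intronic when it fell inside a protein-coding gene and touched no protein-coding exon, no promoter window (1000 bp upstream to 500 bp downstream of a gene start) and no sequence within 500 bp of a gene end. The other regions were 85672 intergenic regions, 35616 that touched an exon, 3591 at promoters and 568 at gene ends. No measured level entered the choice beyond the peak calls themselves.

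The libraries came from handpicked islets of mice 8 weeks old on a C57BL/6 background (the study's methods describe the Cre line as mixed), with 2 libraries per genotype. WT mice were Raptor lox/lox without Cre, and βRapKO mice were Raptor lox/lox with RipCre, so both groups carried the floxed alleles. RipCre places the recombinase under the rat insulin promoter and removes Raptor (gene symbol Rptor), a core part of the kinase complex mTORC1, from cells that express insulin. Islets also hold alpha, delta, endothelial and other cells, and the DNA was taken from whole islets, so a change in beta cells and a change in the mix of cells cannot be told apart. There was no group with RipCre and unfloxed Raptor, and an effect of Cre itself cannot be told apart from that of Raptor loss. Nothing in the labels states how many animals went into a library. The p-values therefore measure only the spread between these libraries.

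In mammals most CpG sites outside CpG islands are methylated, and the bodies of transcribed genes carry methylation in exons and introns alike. Introns are long, poor in CpG and rich in transposon copies, which are kept methylated. They also hold enhancers, second promoters of the host gene and, at some imprinted genes, the start of a noncoding RNA whose promoter is methylated on 1 parental allele. MeDIP-seq enriches DNA fragments with an antibody against methylated cytosine, so that tags gather where methylated CpG sites lie close together.

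The following windows show what the peaks marked. Each is the 300 bp of the reference sequence around a peak summit, read from the plus strand of GRCm38 (mm10), with CpG sites in capitals. The first 3 are imprinted control regions inside introns of Igf2r, Kcnq1 and Trappc9, chosen because methylation of 1 parental allele is textbook knowledge there and they serve as a check of the measurement.
Igf2r: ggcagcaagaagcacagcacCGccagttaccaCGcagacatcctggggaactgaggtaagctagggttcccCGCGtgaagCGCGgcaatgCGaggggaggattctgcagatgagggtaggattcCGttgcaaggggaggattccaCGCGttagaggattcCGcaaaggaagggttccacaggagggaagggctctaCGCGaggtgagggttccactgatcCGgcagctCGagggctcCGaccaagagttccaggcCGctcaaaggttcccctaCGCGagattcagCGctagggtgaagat
Kcnq1: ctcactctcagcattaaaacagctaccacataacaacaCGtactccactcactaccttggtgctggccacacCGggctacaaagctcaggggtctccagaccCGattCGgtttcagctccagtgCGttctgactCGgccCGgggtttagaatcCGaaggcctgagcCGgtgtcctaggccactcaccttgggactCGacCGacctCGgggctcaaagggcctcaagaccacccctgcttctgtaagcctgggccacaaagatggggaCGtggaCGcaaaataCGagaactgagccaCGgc
Trappc9: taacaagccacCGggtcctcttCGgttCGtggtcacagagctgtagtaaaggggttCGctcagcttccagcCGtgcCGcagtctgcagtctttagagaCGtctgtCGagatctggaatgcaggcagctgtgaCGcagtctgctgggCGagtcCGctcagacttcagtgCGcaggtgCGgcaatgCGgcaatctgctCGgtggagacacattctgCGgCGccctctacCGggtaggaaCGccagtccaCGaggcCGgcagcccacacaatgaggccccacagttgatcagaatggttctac
They held 20, 16 and 21 CpG sites, against a median of 7 in the summit windows of all 55410 intronic regions. The window in Igf2r lay at chr17:12741370-12741669 in intron 2. The window in Kcnq1 lay at chr7:143295303-143295602 in intron 11, and that in Trappc9 at chr15:72809869-72810168 in intron 16. None of the 3 windows held repeat-masked bases.

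The next windows belong to the deleted gene and to the gene with the highest signal. Rptor is the gene deleted in βRapKO beta cells. The window in intron 7 of Uxs1, which encodes a UDP-glucuronate decarboxylase, had the highest CPM of any intronic region tested.
Rptor: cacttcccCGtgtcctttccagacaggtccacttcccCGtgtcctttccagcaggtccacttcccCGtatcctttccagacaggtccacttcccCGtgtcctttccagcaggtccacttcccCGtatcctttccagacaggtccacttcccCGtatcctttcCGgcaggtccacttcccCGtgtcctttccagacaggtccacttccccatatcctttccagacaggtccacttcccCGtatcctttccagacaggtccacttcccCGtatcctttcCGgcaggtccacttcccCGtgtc
Uxs1: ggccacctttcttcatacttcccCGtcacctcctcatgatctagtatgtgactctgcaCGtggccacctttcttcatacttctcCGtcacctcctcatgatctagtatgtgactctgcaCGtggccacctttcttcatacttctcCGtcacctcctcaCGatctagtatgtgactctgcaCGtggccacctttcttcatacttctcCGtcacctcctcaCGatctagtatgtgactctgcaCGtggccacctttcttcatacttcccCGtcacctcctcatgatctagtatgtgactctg
The Rptor window (chr11:119628598-119628897, intron 1) held 12 CpG sites and the Uxs1 window (chr1:43778608-43778907) held 11. Both were tandem arrays. The Uxs1 window matched itself at 98.3% of bases when shifted by 61 bases, and the Rptor window at 81.9% when shifted by 57 bases, while the other 9 windows examined reached 43.1% at most. Tags in tandem or transposon copies can come from another copy of the same sequence, and the files do not show which tags aligned to several places.

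The last windows are those of the regions in Msi2, which encodes an RNA-binding protein, and Zfhx3, which encodes a zinc finger homeobox factor, where the tag counts of the genotypes differed most clearly in either direction.
Msi2: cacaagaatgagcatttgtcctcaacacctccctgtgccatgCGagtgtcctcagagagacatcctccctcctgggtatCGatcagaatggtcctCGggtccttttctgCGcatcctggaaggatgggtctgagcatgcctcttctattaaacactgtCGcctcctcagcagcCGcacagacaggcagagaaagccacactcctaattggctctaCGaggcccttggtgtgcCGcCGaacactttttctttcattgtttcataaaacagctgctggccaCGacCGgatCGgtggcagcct
Zfhx3: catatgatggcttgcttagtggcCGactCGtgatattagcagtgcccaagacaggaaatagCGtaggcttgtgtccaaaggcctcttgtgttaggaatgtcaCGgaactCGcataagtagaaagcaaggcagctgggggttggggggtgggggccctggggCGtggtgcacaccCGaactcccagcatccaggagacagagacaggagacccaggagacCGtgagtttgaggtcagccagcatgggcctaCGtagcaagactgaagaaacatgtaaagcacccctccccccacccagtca
The Msi2 window (chr11:88443919-88444218, intron 7) held 12 CpG sites and the Zfhx3 window (chr8:108880546-108880845, intron 10) held 9.

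Introns outside the excluded windows made up 892 Mb, with 0.869 CpG sites per 100 bp, and held 62.1 methylated regions per Mb. Intergenic sequence was poorer in CpG (0.725 per 100 bp) and held 59.3 regions per Mb. Lengths in Mb include unsequenced bases, which the CpG densities leave out. Introns and intergenic sequence therefore cannot be ranked by these figures per Mb. Regions that touched an exon numbered 416 per Mb of exon, a figure that is raised by the rule, since any region with 1 exonic base was assigned to the exon. The median intronic region was 1084 bp wide, and 90% of the intronic regions were between 536 and 2410 bp. It held 1.45 CpG sites per 100 bp, more than the 0.869 of intron sequence as a whole. Of its bases 22.6% were repeat-masked, against 28.5% of intron sequence as a whole. Only 100 intronic regions were wider than 5 kb. The island criteria, more than 50% GC and an observed to expected CpG ratio above 0.6 in the summit window, were met by 2685 intronic regions, or 4.85%, against 8.24% of all regions.

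Intronic peaks were weaker than other peaks in each of the 4 libraries. Their median CpG density was 1.57 to 1.63 per 100 bp, against 1.82 to 1.89 for the other peaks (difference −0.262 ± 0.00865 CpG per 100 bp, SD over 4 libraries). The difference was larger against peaks at exons (−0.402 ± 0.0130, n = 4) and promoters (−0.426 ± 0.0282, n = 4), and smaller against intergenic peaks (−0.18 ± 0.00653, n = 4) and peaks at gene ends (−0.0863 ± 0.0309, n = 4). Intronic peaks were also narrower (difference −64.5 ± 5.26 bp) and held fewer tags, with medians of 45 to 51 against 50 to 57. Width and tags are partly set by the rule, since a wider region more often touches an exon, promoter window or gene end. Their fold enrichment over the local background was 6.72 to 7.08, against 6.98 to 7.50 for other peaks. All 11 of these measures were lower for intronic peaks in 4 of 4 libraries (two-sided exact sign-flip test, p = 0.125 for each, also after Benjamini-Hochberg adjustment), which is the smallest p that 4 libraries allow.

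At 18563 intronic regions, or 33.5%, each of the 4 libraries had a peak. This share was 32.0% at gene ends, 41.2% for intergenic regions, 46.3% at promoters and 47.3% at exons. Conversely, 32.2% of intronic regions were called in 1 library only, against 27.3% of intergenic regions and 21.8% of those at exons. WT replicate 2 alone accounted for 8148 of these single calls, while each of the other libraries accounted for 3004 to 3350. That library had the most tags after duplicates were removed (31330751, against 25585533 to 29220997), the shortest fragment length estimated by the peak caller (238 bp, against 269 to 283 bp) and the most peaks (151093, against 117638 to 121186). The part of these values in its additional calls was not tested.

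CpG density and width moved with how reproducibly a region was called. In the fifth of intronic regions with the fewest CpG sites, up to 1.05 per 100 bp, 23% were called in all 4 libraries. In the fifth with the most, from 1.91 per 100 bp, 46.2% were, and the median CPM of the regions tested was 3.12 against 1.62. CPM is the number of tags in the peaks of a region per 1000000 tags of the library left after removal of duplicates. The share called in all 4 libraries was 26.3% in the fifth with the least repeat-masked sequence and 40.5% in the fifth with the most. Width showed the steepest gradient, from 3.5% for regions up to 760 bp to 65.4% for those of 1510 bp or more. A region joined from more peaks is also wider by construction.

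**Figure D1:**
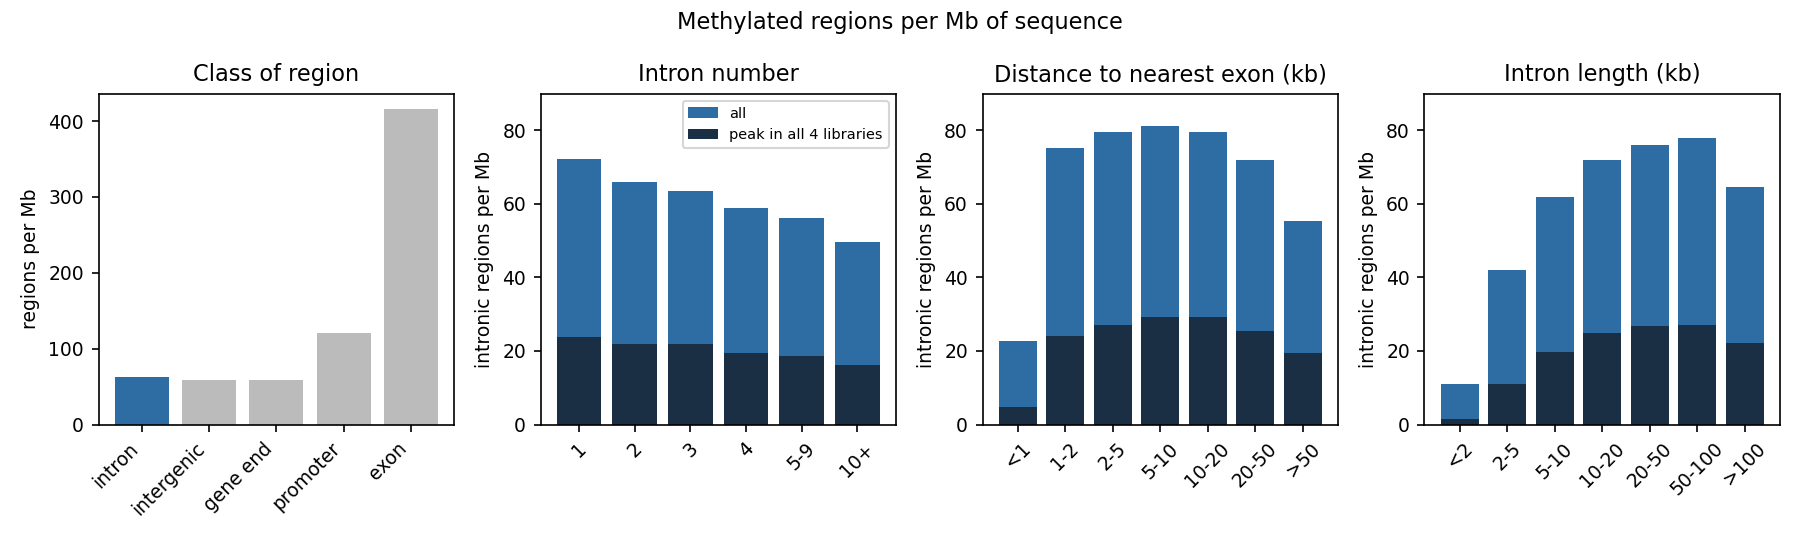
Bars give methylated regions per Mb of sequence by class of region (left, intronic regions in blue) and, for intronic regions, by intron number, distance to the nearest exon and intron length in kb, with regions called in all 4 libraries in dark. Unsequenced bases count towards the Mb. Regions fell from 72.1 per Mb in first introns to 49.7 per Mb in introns from number 10, and among the bins of distance they were fewest within 1000 bp of an exon.

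The density of intronic regions was lower in introns of higher number. Introns were numbered along 1 principal transcript per gene, and 5780 intronic regions lay in introns of other transcripts only. First introns held 14846 regions, or 72.1 per Mb. The density was 66 per Mb in introns number 2, 63.5 in those number 3, 58.9 in those number 4, 56.2 in introns 5 to 9 and 49.7 in introns from number 10. Counted per 1000 CpG sites of the sequence, introns 1 and 2 were alike with 7.66 and 7.72 regions, and introns from number 10 held 5.96. The regions called in all 4 libraries followed the same order from first introns (23.9 per Mb) to introns from number 10 (16.3 per Mb). First introns are also longer, and density rose with intron length, from 11 per Mb in introns under 2000 bp to 77.9 per Mb in introns of 50000 to 100000 bp, but was 64.7 per Mb in those over 100000 bp. Intron length and intron number were not separated.

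By distance in bp the order was different, since methylated regions were scarce close to the gene start. Within 2000 bp of the start, intron sequence had the highest CpG density (1.56 per 100 bp) and 31.9 regions per Mb, or 2.04 per 1000 CpG sites. From 2000 to 5000 bp it held 59.1 regions per Mb and 6.21 per 1000 CpG sites. The density then rose to 67.1 per Mb at 50000 to 100000 bp and was 61.6 per Mb beyond, where the count per 1000 CpG sites was highest (8.00). Part of this sequence is excluded by the promoter window, and a region about 1 kb wide cannot lie close to the window without touching it. The same limit applies near exons, where 22.8 regions per Mb lay within 1000 bp and 75.2 per Mb at 1000 to 2000 bp.

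Among chromosomes, the density ranged from 55.9 intronic regions per Mb of intron on chromosome 1 to 71.1 on chromosome 17. Across the 19 autosomes it rose with the CpG density of the introns (Pearson's r = 0.645, Spearman's rho = 0.63, n = 19 chromosomes that share the same 4 libraries).

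Intronic regions were found in 9454 protein-coding genes, or 49.3% of the 19171 genes with intron sequence outside the excluded windows. Of these genes, 3040 held 1 region, and 1475 held 10 or more. Those 1475 genes held 59.4% of all intronic regions. The gene models with the most regions were among the longest in the genome. Gm20388, a gene model on chromosome 8 that spans 4435 kb and many other genes, held 268. Fgfr2, which encodes a fibroblast growth factor receptor, held 136 in a model of 2961 kb. Auts2 (125), Sox5 (122), Wwox (118), Zfhx3 (118), Sdk1 (117), Rbms3 (112) and Asic2 (111) were also among the genes with the most regions. Per 100 kb of intron these 9 genes held 10.2 to 13.1 regions, against a median of 6.83 and quartiles of 4.06 and 9.74 over the 2053 genes with at least 100 kb of intron.

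The densest of those 2053 genes was Galnt7, which encodes a glycosyltransferase of mucin-type glycans, with 21 regions in 124 kb of intron. Vgll4, a cofactor of TEAD transcription factors, held 17 in 104 kb, and Mcu, the pore of the mitochondrial calcium uniporter, held 25 in 161 kb. At the other end, Jph1, Scn7a, Atp10b, Ecpas and Tmem267 held no region in 102 to 128 kb of intron. Ttn, which encodes the muscle protein titin, held 1 region in 161 kb, and Zfhx4, a neural homeobox factor, held 1 in 181 kb. The peaks do not show whether such introns were unmethylated or too poor in methylated CpG to pass the caller's threshold.

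Tags in intronic regions were then compared between genotypes, which asked whether loss of Raptor changed methylation there. Of the 18563 intronic regions called in all 4 libraries, 0 were lower and 0 were higher in βRapKO when an FDR of 0.05 and more than 1.5-fold were required (quasi-likelihood test of edgeR, Benjamini-Hochberg adjustment over 72519 regions, of which 0% were called in either direction). The smallest adjusted p of an intronic region was 0.38 by this test. At an unadjusted p under 0.05, 645 intronic regions (3.47%) were lower and 348 (1.87%) were higher, against 3.93% and 1.9% of all regions tested. By size alone, 305 intronic regions had a mean CPM more than 1.5-fold lower in βRapKO and 242 had one more than 1.5-fold higher, or 1.64% and 1.3%, against 1.8% and 1.3% of all regions. Which direction was more frequent depended on the scaling. With TMM normalization 414 regions were lower and 565 higher at an unadjusted p under 0.05, and 208 and 362 were past 1.5-fold. With the tags in peaks as library size, these counts were 148 and 978, and 104 and 657. All regions tested moved alike. With TMM 49.4% of them were below 0, against 47.2% of intronic regions, and with the tags in peaks 31.1% against 29.4%. Leaving out βRapKO replicate 2 gave 914 lower and 377 higher past 1.5-fold, and leaving out WT replicate 1 gave 495 lower and 642 higher. Without WT replicate 2 they were 582 and 502, and without βRapKO replicate 1 they were 526 and 456. DESeq2, limma and edgeR with TMM normalization also called 0 intronic regions in each direction. Counts were also simulated for the 72519 regions, with 1 common dispersion and 200 changed regions. By FDR alone, edgeR recovered 101 of 200 changes of 2-fold and 2 of 200 changes of 1.5-fold. In that setting, differences of 1.5-fold at single regions were rarely detected at this depth and number of libraries. Recovery with more changed regions, or with a dispersion that differs between regions, was not simulated.

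The whole distribution of intronic regions lay slightly below 0. On the CPM scale the median log2 fold-change was −0.05 for intronic regions and −0.06 for all regions, and 58.2% of the intronic regions were below 0, against 60.7% of all. Both βRapKO libraries lay below both WT libraries at 4379 intronic regions (23.6%, against 25.3% of all regions) and above both at 2306 (12.4%, against 11.7%). The median CPM of an intronic region was 2.19 (WT replicate 1), 2.17 (WT replicate 2), 2.05 (βRapKO replicate 1) and 2.16 (βRapKO replicate 2). The groups did not overlap, but WT replicate 2 and βRapKO replicate 2 lay closer to each other than the βRapKO libraries did (p = 0.333 by a two-sided exact permutation test, which cannot go lower with 2 libraries per genotype). The direction depended on the scaling. TMM normalization, which centres the ratios of all regions, gave a median of 0.01 for intronic regions and 0.003 for all. Dividing by the tags that lay in peaks gave 0.12 for intronic regions and 0.11 for all.

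Tags per kb of peak set the genotypes further apart than tags per region. Tag density is the number of tags per kb of called peak and per 1000000 tags of the library. For intronic peaks its median was 1.78 and 1.77 in WT (mean 1.78 ± 0.0073, SD, n = 2) and 1.64 in both βRapKO libraries (mean 1.64 ± 0.00252, SD, n = 2). The log2 ratio was −0.12, and no βRapKO library reached a WT library (two-sided exact permutation test, p = 0.333). The same held for the 75% quantile, which was 2.19 ± 0.0124 for WT and 1.98 ± 0.00779 for βRapKO (SD, n = 2 each). Called width went the other way: its median was 1054 and 1100 bp in βRapKO but 1010 and 896 bp in WT (two-sided exact permutation test, p = 0.333). The fragment length estimated by the peak caller was 269 and 283 bp in βRapKO and 275 and 238 bp in WT. Each median was taken over the peaks of that library. The part of fragment length and peak set in width and density was not tested. Divided by the tags that lay in peaks, density had a log2 ratio of 0.05 and the groups overlapped.

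**Figure D2:**
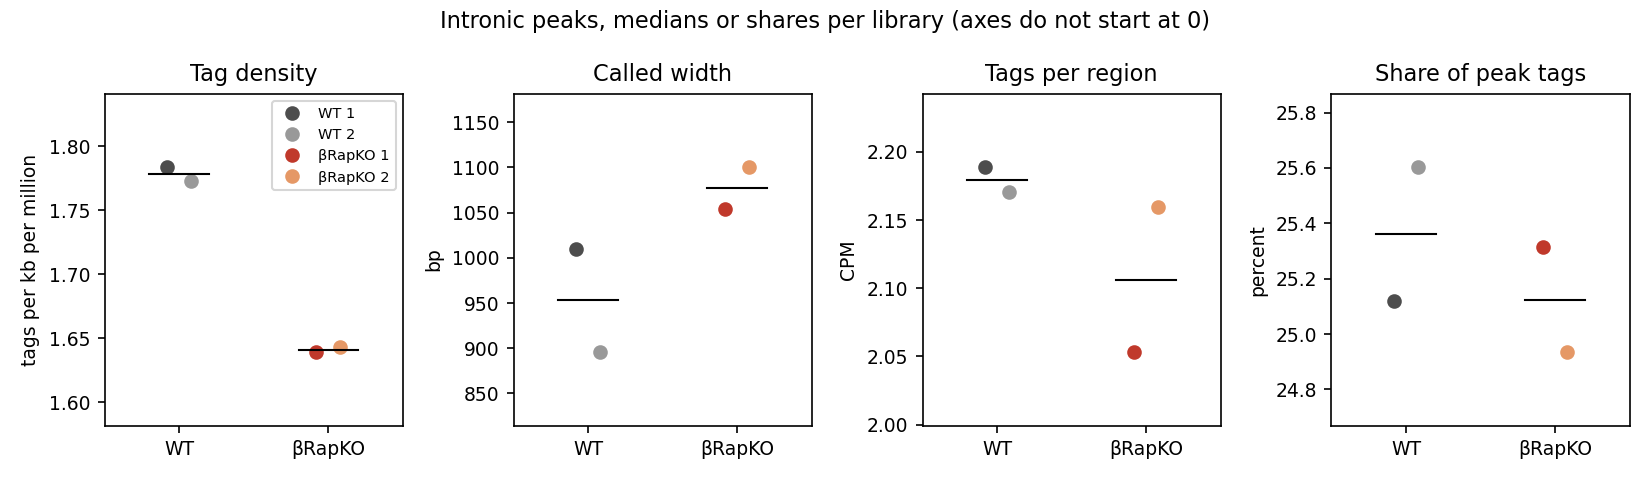
Points give each library (WT in greys, βRapKO in red and orange) and lines the mean of each genotype for intronic peaks: median tag density, median called width, median CPM of the 18563 regions tested, and the percent of peak tags that lay in intronic regions. The genotypes are apart in density (1.77 to 1.78 against 1.64 tags per kb per 1000000 tags) and width, and overlap in the share of tags.

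The share of all peak tags that lay in intronic regions did not separate the genotypes. The WT libraries had 25.1% and 25.6%, the βRapKO libraries 25.3% and 24.9% (difference −0.237 percentage points, two-sided exact permutation test, p = 0.667). The median log2 CPM of intronic regions relative to the other regions was −0.17 ± 0.00665 for WT and −0.15 ± 0.0247 for βRapKO (SD, n = 2 each), a difference of 0.02 with overlapping groups (two-sided exact permutation test, p = 0.667). Relative to regions at exons, intronic regions stood at −0.28 and −0.30 in WT and −0.22 and −0.27 in βRapKO, without overlap (p = 0.333 by the same exact permutation test). Relative to intergenic regions the order was the opposite, with −0.10 and −0.10 in WT and −0.12 and −0.11 in βRapKO, also without overlap (exact permutation test, p = 0.333). The median log2 fold-change was −0.10 for regions at exons and −0.10 for those at promoters, and −0.05 for intronic and intergenic regions alike.

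Within the introns the difference between genotypes varied little with position. The median log2 fold-change was −0.04 in first introns and −0.05 in introns from number 10, and the medians of all bins of intron number, distance and length lay between −0.04 and −0.08. It was −0.03 in the fifth of intronic regions with the fewest CpG sites and −0.07 in the fifth with the most. The gap in median log2 CPM between these groups of regions was 0.93 and 1.04 for the WT libraries, against 0.92 and 0.97 for the βRapKO libraries, which overlapped (two-sided exact permutation test, p = 0.667).

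The count of a region moved with how much of it was called as peak. Over the 18563 regions tested, the log2 fold-change of CPM and the log2 ratio of called width had a Pearson's r of 0.629 and a Spearman's rho of 0.542 across regions, which share the 4 libraries and are not independent replicates. CPM counts only tags inside called peaks, so part of this link is built in. Over the 18563 regions, 13090 (70.5%) had wider peaks in βRapKO and 14439 (77.8%) had fewer tags per kb there. Fewer tags per kb were found at 79.7% of all regions tested. The other counts given here were taken over intronic regions only. All 242 intronic regions past 1.5-fold higher had wider peaks in βRapKO, and 160 of them had fewer tags per kb there. Of the 305 past 1.5-fold lower, 285 had narrower peaks in βRapKO, and 254 also had fewer tags per kb. Of the 348 regions higher at an unadjusted p under 0.05, 8 were also higher at that threshold in tags per kb. Of the 645 lower regions, 257 were also lower in tags per kb. Tags per kb centred on a median log2 fold-change of −0.15 for intronic regions and −0.17 for all, so the directions did not start level.

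**Figure D3:**
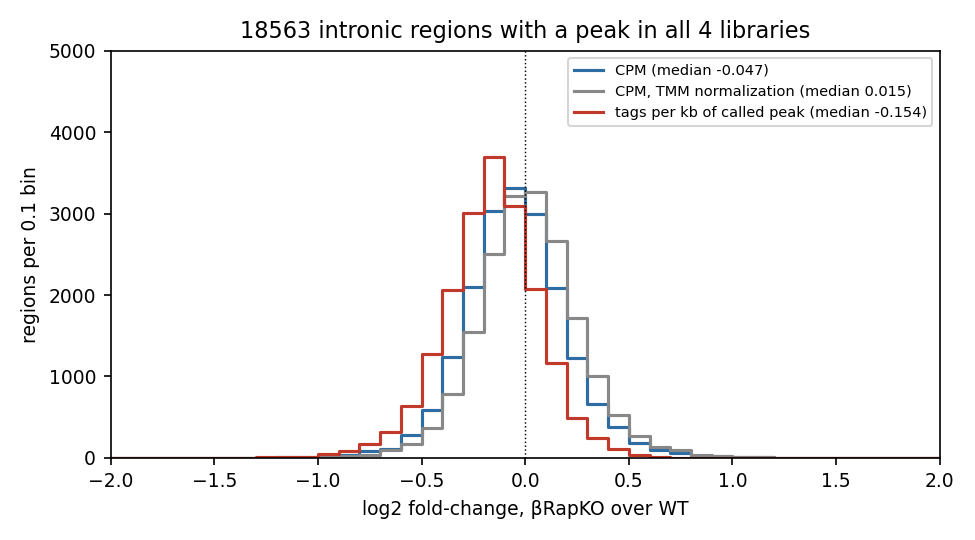
The lines count the intronic regions in bins of log2 fold-change (βRapKO over WT) for CPM, for CPM after TMM normalization and for tags per kb of called peak. The median moves from −0.05 with CPM to 0.01 with TMM and −0.15 with tags per kb.

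The 3 intronic regions with the smallest p among those lower in βRapKO showed this. In intron 7 of Msi2 (chromosome 11, 88441356 to 88446071), CPM was 11.5 and 10.9 in WT and 5.48 and 4.97 in βRapKO (log2 fold-change −1.10, edgeR adjusted p = 0.38). The 2 groups were far apart. The peaks covered 4716 and 4414 bp in WT and 2542 and 2230 bp in βRapKO, and tag density was 2.44 and 2.46 against 2.15 and 2.23, a log2 fold-change of −0.16. Rasgef1b, which encodes an exchange factor for Ras-family proteins, had 5.78 and 6.22 CPM in WT and 2.29 and 2.60 in βRapKO in a region on chromosome 5 (99711396 to 99715206), with −1.29 on the CPM scale and −0.14 per kb. The gene 4930469K13Rik had 8.68 and 7.76 CPM in WT and 3.56 and 3.63 in βRapKO on chromosome 11 (33994830 to 33999572), with −1.19 on the CPM scale and −0.12 per kb. In all 3 regions the peaks of βRapKO covered less of the region, while tag density differed much less than CPM and overlapped between the genotypes at 4930469K13Rik.

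The 3 with the smallest p among those higher mirrored them. In intron 10 of Zfhx3 (chromosome 8, 108877831 to 108881277), CPM was 1.80 and 1.98 in WT and 4.89 and 5.14 in βRapKO (log2 fold-change 1.4, edgeR adjusted p = 0.38). The peaks covered 509 and 838 bp in WT and 2586 and 3447 bp in βRapKO, and tag density was 3.53 and 2.36 in WT against 1.89 and 1.49 in βRapKO. The sign therefore turned to −0.74 per kb. Intron 1 of Slc22a13, which encodes an organic anion transporter, had 2.38 and 2.68 CPM in WT and 5.51 and 5.59 in βRapKO (chromosome 9, 119203272 to 119206276, also inside Slc22a14), with 1.13 on the CPM scale and −0.18 per kb. Intron 8 of Akap13, which encodes an anchoring protein for protein kinase A, had 0.938 and 0.894 CPM in WT and 2.26 and 2.16 in βRapKO (chromosome 7, 75615469 to 75616881), with 1.27 on the CPM scale and 0.06 per kb.

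**Figure D4:**
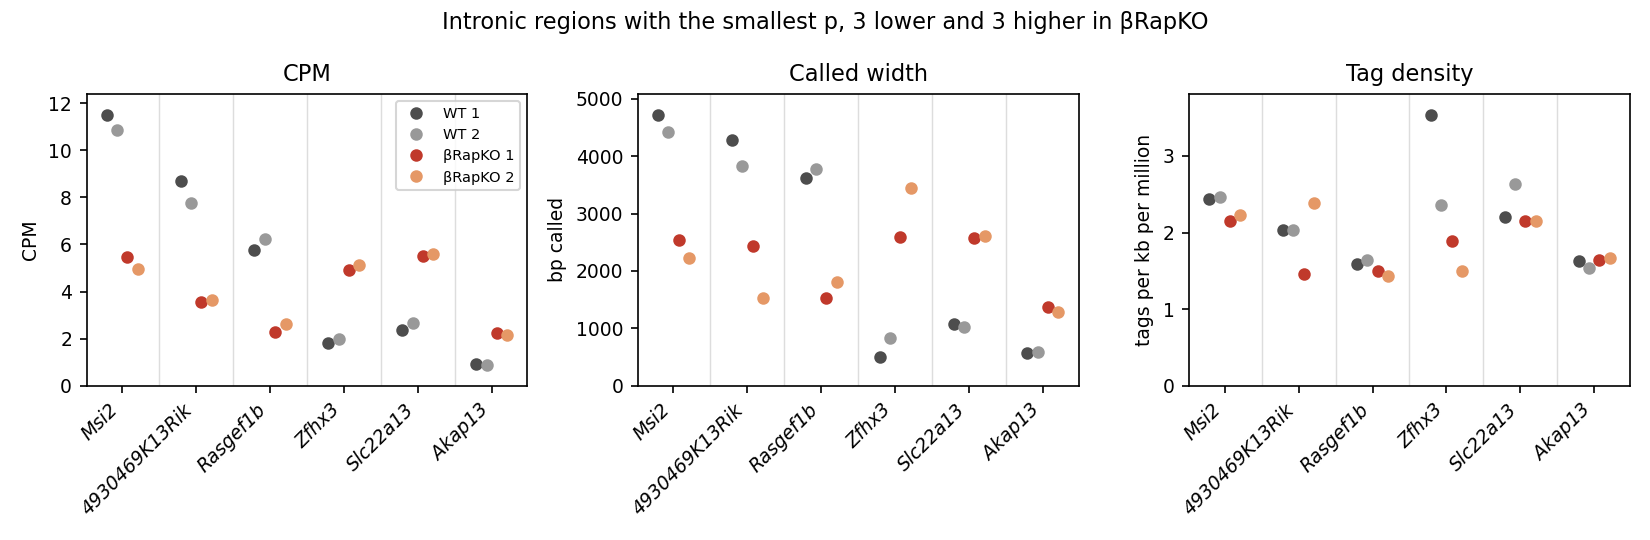
Points give each library at the 6 regions: CPM, base pairs called as peak, and tags per kb per 1000000 tags. CPM, by which the regions were chosen, and called width separate the genotypes at every gene shown. Tag density is closer together. It is lower in both βRapKO libraries at Msi2, Rasgef1b, Zfhx3 and Slc22a13, barely higher at Akap13, and overlaps at 4930469K13Rik.

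The intronic regions with the highest mean CPM differed in their repeat content. The region in Uxs1 (chromosome 1, 43777263 to 43779276), with a tandem array in its summit window and 1.34% of its bases repeat-masked, had 43.2 and 40.8 CPM in WT and 38.2 and 37.4 in βRapKO (log2 fold-change −0.15). Intron 3 of Coro2b, an actin-binding protein gene, held a region of 7849 bp with 3.77 CpG sites per 100 bp and 44.4% of its bases repeat-masked (chromosome 9, 62439263 to 62447111), at 39.0 and 39.6 CPM in WT and 32.8 and 34.6 in βRapKO (log2 fold-change −0.22). Intron 7 of Atp6v1h, a subunit of the proton pump that acidifies secretory granules and lysosomes, held a region of 5897 bp (chromosome 1, 5109118 to 5115014), 83.5% of it repeat-masked, with 35.5 and 37.9 CPM in WT and 35.6 and 36.7 in βRapKO (log2 fold-change −0.02). At Uxs1 and Coro2b the groups did not overlap, and at Atp6v1h they did. Of the 100 intronic regions with the highest mean CPM, 80 were more than 50% repeat-masked, against 21.9% of all those tested, and their median width was 4062 bp against 1378 bp.

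A peak in both WT libraries and in neither βRapKO library was found at 2555 intronic regions (4.61%, against 4.19% of all regions), and the reverse at 1015 (1.83%, against 1.59%). Among intronic regions called in exactly 2 libraries, whatever their genotype, the 3 pairs with WT replicate 2 held 2186 to 2555 each, and the 3 pairs without it 1010 to 1030. The excess of WT-only over βRapKO-only regions therefore cannot be told apart from the additional calls of WT replicate 2. The caller's score, −log10(p) multiplied by 10 with a threshold of 50, was mostly low. The best score per region had a median of 79.7 in the WT-only regions and 74.9 in the βRapKO-only regions, against 164 in regions called in all 4 libraries. It reached 100 in 586 of the WT-only and 167 of the βRapKO-only regions. Since no tags are listed where no peak was called, these patterns give no fold-change.

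Among the WT-only regions, intron 1 of Plcd3, which encodes a phospholipase C, stood out with 593 and 850 tags and scores of 502 and 481 in the WT libraries (chromosome 11, 103083690 to 103088999). It was 5310 bp wide and 74.6% repeat-masked, and the nearest βRapKO peaks lay 3.49 and 3.48 kb away. Btbd3 (chromosome 2, 138516818 to 138523970) had 634 and 748 tags and Immp2l intron 4 (chromosome 12, 41266749 to 41273930) had 570 and 693, in regions of 7153 and 7182 bp that were 76.7% and 73.9% repeat-masked. The highest βRapKO-only regions held fewer tags. Slc39a11 intron 4, in a zinc transporter gene, had 271 and 236 tags in the βRapKO libraries with scores of 51.4 and 91.1 (chromosome 11, 113479591 to 113485276). Celf2, which encodes a splicing regulator, had 207 and 196 tags (chromosome 2, 7406835 to 7409813), and the nearest WT peaks lay within 0.984 kb. Dym intron 16 had 181 and 212 tags (chromosome 18, 75246930 to 75250152). The caller measured each peak against a local background of 10000 bp, and all 6 regions were wider than the median of 1084 bp. The part of width and repeats in the missing calls was not tested.

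Imprinted control regions are methylated on 1 parental allele in all tissues and tie the activity of neighbouring genes to the parent of origin. The region in intron 2 of Igf2r (chromosome 17, 12740957 to 12742924) covered the start of Airn, the antisense RNA that silences Igf2r on the paternal allele. It had 5.13 CpG sites per 100 bp, more than 3 times the median of intronic regions, and CPM was 3.40 and 3.48 in WT and 3.35 and 3.56 in βRapKO (log2 fold-change 0.01). The libraries were nearly level. The region in intron 11 of Kcnq1 (chromosome 7, 143294586 to 143297138) covered the start of Kcnq1ot1, a long antisense RNA. It had 4.11 CpG sites per 100 bp, and CPM was 7.39 and 7.18 in WT and 6.19 and 6.86 in βRapKO (log2 fold-change −0.16). The βRapKO libraries lay below both WT libraries there. The region in intron 16 of Trappc9 (chromosome 15, 72808810 to 72811482) covered the start of the noncoding RNA Peg13. It had 3.78 CpG sites per 100 bp, and CPM was 6.25 and 7.69 in WT and 4.72 and 7.20 in βRapKO (log2 fold-change −0.23), with overlapping groups. The adjusted p of these 3 regions was 0.888 to 0.997 by the edgeR test.

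The letters TGCCGC, which the imprint-keeping zinc finger protein ZFP57 recognises when methylated, were searched on both strands of the summit windows. They occurred 3 times in the window of Trappc9, 1 time in that of Igf2r and not in that of Kcnq1. They were present in 6.22% of the summit windows of intronic regions and in 8.44% of those of all regions.

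The list of 10 genes with an imprinted control region in or near an intron held 96 intronic regions in 9 genes, and 33 were tested. Grb10 had none. Of the 33, 4 (12.1%) were lower and 1 (3.03%) was higher in βRapKO with an unadjusted p under 0.05, against 3.93% and 1.9% of all regions tested. In all, 22 (66.7%, against 60.7%) were below 0, with a median log2 fold-change of −0.14 against −0.06 over all regions tested. At Igf2r and Kcnq1 the control region was also the region with the most tags. In Trappc9 that region lay in intron 8 (chromosome 15, 72979815 to 72983217), with 1.5 CpG sites per 100 bp (9.34 and 9.45 CPM in WT, 6.81 and 7.61 in βRapKO). The region in Gnas, which encodes the stimulatory G protein subunit, rested on 38 and 39 tags in WT and 64 and 68 in βRapKO (chromosome 2, 174316506 to 174318121), or 1.49 and 1.24 CPM against 2.19 and 2.33, with an adjusted p of 0.659 by the edgeR test. The regions in Inpp5f, Herc3 and Commd1 had log2 fold-changes of −0.27, −0.22 and −0.11. Those in H13 and Impact were called in 2 libraries and 1 library. The regions in Gnas, Inpp5f, Herc3, Commd1, H13 and Impact were chosen as the region with the most tags in each gene. None was identified as the control region, and they held 1.27 to 1.76 CpG sites per 100 bp.

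The deleted gene itself carried 26 intronic regions, 9 of them called in all 4 libraries. The strongest, in intron 1 of Rptor, held the tandem array printed for this gene (119627175 to 119629543), with 248 and 309 tags in WT and 225 and 275 in βRapKO. The next, in intron 5 (119750141 to 119752344), had 4.89 and 5.17 CPM in WT and 3.8 and 4.83 in βRapKO (log2 fold-change −0.22). The 9 log2 fold-changes ran from −0.24 to 0.12. Methylation peaks do not show whether the floxed exon was deleted, so they are no check of the genotype.

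The other lists are described by the same counts, beside 3.93% lower and 1.9% higher at that p and a median log2 fold-change of −0.06 over all regions tested. Genes of mTORC1 and insulin signalling held 183 intronic regions in 31 of 38 genes. Of the 60 tested, 2 were lower and 1 was higher at an unadjusted p under 0.05, and the median log2 fold-change was −0.04. Intron 2 of Igf1r, the receptor for insulin-like growth factor 1, had the strongest region of this list, ahead of that of Rptor, with 9.54 and 11.6 CPM in WT and 10.3 and 9.46 in βRapKO (chromosome 7, 68114931 to 68119494; log2 fold-change −0.10). In intron 2 of Prkaa2, a catalytic subunit of the energy sensor AMPK, both βRapKO libraries (6.40 and 6.44 CPM) lay below both WT libraries (7.50 and 7.72 CPM), with a log2 fold-change of −0.25 and an adjusted p of 0.861 by the edgeR test (chromosome 4, 105062708 to 105064789).

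Genes of glucose sensing and insulin secretion held 291 intronic regions in 20 of 32 genes, 84 of them tested. In each direction, 1 region reached an unadjusted p under 0.05, and the median log2 fold-change was −0.05. Rims2 and Pclo encode scaffold proteins of the exocytosis site. The strongest region of Rims2 (chromosome 15, 39337266 to 39340232), 89.96% of it repeat-masked, had 10.2 and 9.29 CPM in WT and 8.52 and 8.74 in βRapKO (log2 fold-change −0.17). That of Pclo (chromosome 5, 14835328 to 14838786), 77.2% of it repeat-masked, had 9.22 and 7.31 CPM in WT and 8.42 and 6.82 in βRapKO (log2 fold-change −0.11), and the groups overlapped there. A peak in WT alone was found at 10 of the 291 regions (3.44%, against 4.19% of all regions) and in βRapKO alone at 13 (4.47%, against 1.59%). Introns of Kcnj11, which encodes the pore of the KATP channel, and of Slc2a2, the glucose transporter of mouse beta cells, held no region.

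Beta cell transcription factors held 102 intronic regions in 11 of 26 genes, and 25 were tested, 1 of them lower and 0 higher at an unadjusted p under 0.05. The median log2 fold-change was −0.05. Many of these genes are short, and Pdx1, Mafa, Nkx6-1, Neurod1, Isl1 and Pax6 held none. The strongest region lay in intron 7 of Tcf7l2, a Wnt pathway factor, with 7.43 and 7.56 CPM in WT and 6.78 and 6.20 in βRapKO (chromosome 19, 55913612 to 55915937; log2 fold-change −0.21). It had 2.88 CpG sites per 100 bp and was 6.28% repeat-masked. Both βRapKO libraries lay below the WT libraries. Glis3, a factor needed for insulin gene expression, had 5.24 and 5.59 CPM in WT and 5.48 and 8.12 in βRapKO in intron 4 (chromosome 19, 28526328 to 28530287), where βRapKO replicate 2 stood apart from the other 3 libraries. Hnf4a, a nuclear receptor gene of maturity-onset diabetes, had 2.7 and 3.0 CPM in WT and 2.67 and 2.26 in βRapKO (chromosome 2, 163532974 to 163534761).

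Disallowed genes are kept silent in beta cells while most tissues express them. The list of 30 held 90 intronic regions in 17 genes, and 27 were tested, 3 of them lower and 0 higher at an unadjusted p under 0.05. The median log2 fold-change was −0.08. A peak in WT alone was found at 8 of their 90 regions (8.89%, against 4.19% of all regions) and in βRapKO alone at 1 (1.11%, against 1.59%). WT-only calls cannot be told apart from the additional calls of WT replicate 2. These shares were 6.56% and 1.09% for mTORC1 and insulin signalling, and 3.92% and 1.96% for beta cell transcription factors. They were 2.47% and 0% for DNA methylation machinery, and 3.03% and 1.52% for other pancreatic cells. All intronic regions of the genes with an imprinted control region had 3.125% and 1.04%, and most of these regions are not control regions. Intron 1 of Smad3, a mediator of TGF-β signals, had 11.2 and 7.37 CPM in WT and 5.89 and 6.65 in βRapKO (chromosome 9, 63737619 to 63742088; log2 fold-change −0.56, edgeR adjusted p = 0.851). WT replicate 1 stood alone there, with peaks over 4470 bp against 2577 to 3073 bp in the other libraries. Intron 2 of Itih5 had 4.89 and 5.27 CPM in WT and 4.07 and 4.56 in βRapKO (chromosome 2, 10169136 to 10171092). Intron 2 of Acot7, an acyl-CoA thioesterase gene, had 4.26 and 2.39 CPM in WT and 5.13 and 4.59 in βRapKO (chromosome 4, 152209046 to 152211876). Its log2 fold-change was 0.56 on the CPM scale and −0.10 per kb.

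**Figure D5:**
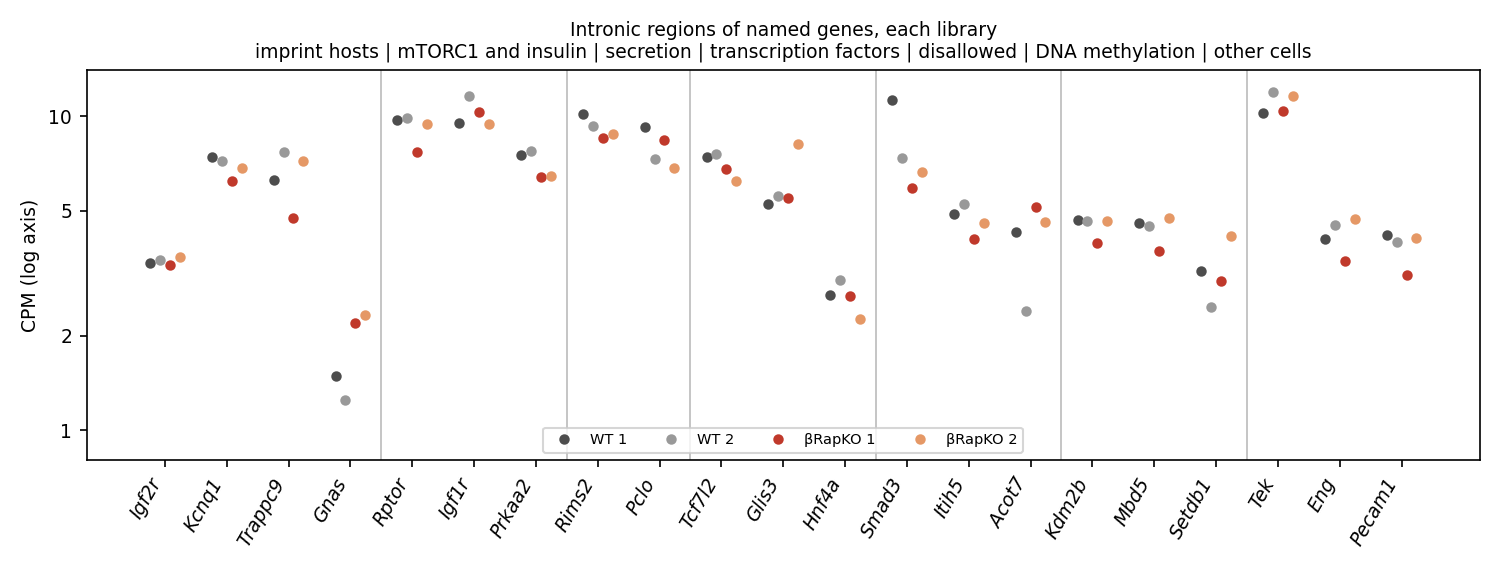
Points give the CPM of each library (log axis) for intronic regions of the genes on the axis, grouped by list. Trappc9 is the region over the start of Peg13. Gnas is the region with the most tags in that gene and was not identified as a control region. Both βRapKO libraries lie below both WT libraries at Kcnq1, Rptor, Prkaa2, Rims2, Tcf7l2, Hnf4a, Smad3, Itih5 and, barely, Kdm2b, and above them at Gnas and Acot7, while the genotypes overlap at the other genes shown. Of all regions tested, 25.3% lay below in this way and 11.7% above. No region shown passed the FDR.

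Genes of the DNA methylation machinery held 81 intronic regions in 18 of 28 genes. Of the 19 tested, 0 were lower and 0 were higher at an unadjusted p under 0.05, 13 were below 0, and the median log2 fold-change was −0.10. The strongest lay in Kdm2b, which encodes a CpG-binding demethylase of histones (chromosome 5, 122914045 to 122916691, with 4.65 and 4.63 CPM in WT, 3.94 and 4.63 in βRapKO), Mbd5 (chromosome 2, 49308194 to 49310001, with 4.57 and 4.47 CPM in WT, 3.73 and 4.73 in βRapKO) and Setdb1, the histone methyltransferase that silences retroelements (chromosome 3, 95343318 to 95345121, with 3.2 and 2.46 CPM in WT, 2.98 and 4.15 in βRapKO). Markers of other pancreatic cells held 66 regions in 15 of 36 genes, and of the 22 tested 1 was lower and 0 were higher at that p. Their median log2 fold-change was −0.10. The strongest were all in endothelial genes, Tek (chromosome 4, 94816544 to 94819922, with 10.2 and 11.9 CPM in WT, 10.4 and 11.6 in βRapKO), Eng (chromosome 2, 32664258 to 32666535, with 4.06 and 4.50 in WT, 3.46 and 4.70 in βRapKO) and Pecam1 (chromosome 11, 106723853 to 106726421, with 4.18 and 3.96 in WT, 3.11 and 4.08 in βRapKO), and the genotypes overlapped at each. Introns of the hormone genes Gcg, Sst and Ppy of alpha, delta and PP cells held no region, so these hormone genes give no measure of those cells.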

How the data were processed

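MeDIP-seq libraries of WT and βRapKO islets (2 each) were grouped by genotype in the sample labels. The authors aligned reads to mm10 (Bowtie2 2.2.5 in the submitters' processing notes, which also list mm9 and MACS 0.14.2) and called peaks per library, without control, with MACS 1.4.2 per the file headers (p cutoff 1e-05, 1 tag kept per position). For each peak the deposited files give an unnormalized count of tags, −log10(p) multiplied by 10, and a fold enrichment. No depositor column was left unassigned, and tags outside peaks were not used here. Peak ends fitted GRCm38, and genes came from GENCODE M21.

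Tags of a library were added per region and tested across all 72519 regions with a peak in every library by edgeR 4.0.16 (R 4.3.3, common dispersion 0.0152), with tags after duplicate removal as library size and no further normalization. The test was checked on simulated counts, with 8 false calls at 2-fold and 0 at 1.5-fold. Library medians were compared by exact permutation. DESeq2 1.42.0, limma 3.58.1 on log2(CPM + 0.5) and further settings were alternatives. Python 3.11.15 with SciPy 1.17.1, NumPy 2.4.6 and pandas 2.3.3 did the rest. Replicates were further apart than sampling noise over intronic regions (chi-square per region 2.08 and 2.09), as were libraries of different genotypes (2.04 to 2.5), so replicates were not closer than all pairs across genotypes. Counting intervals were not used, since this spread exceeded counting error.

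Named regions were, for hosts of imprinted control regions and Rptor, the region with the most tags, plus the control regions in Igf2r, Kcnq1 and Trappc9; the 3 strongest genes per list; the 3 smallest p per direction; the 3 highest CPM among tested, WT-only and βRapKO-only regions; and the 10 genes with most regions; some of these are not reported here. The members, the 7 gene lists and these rules were chosen with earlier results of these data known. The densest and sparsest genes were named after their values were seen.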

Additional observations from a re-analysis of the deposited data

How the results depend on the processing

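Of 18563 intronic regions, 0 were lower and 0 higher at the FDR and fold-change under all alternatives run. The median log2 fold-change turned to 0.015 with TMM, 0.118 when counts were divided by the tags in peaks (the sum in peaks) and 0.0136 with DESeq2, each of which rescales the libraries; without each library in turn it ran from −0.09 to −0.02. At an unadjusted p under 0.05, regions lower and higher numbered 414 and 565 with TMM, 148 and 978 with the sum in peaks, 80 and 149 with DESeq2, 2122 and 67 per kb, 291 and 133 with stricter peaks (7012 of 24260 intronic regions tested), and 155 were higher with at least 50 tags in every library. Past 1.5-fold, regions lower and higher numbered 208 and 362 with TMM, 104 and 657 with the sum in peaks, 772 and 26 per kb, 66 and 78 with stricter peaks, 19 and 25 past 2-fold, and 495 to 914 and 377 to 642 without 1 library. These counts were taken over intronic regions only. Over all regions tested, the median log2 fold-change was 0.00325 with TMM, 0.106 with the sum in peaks, 0.00166 with DESeq2 and −0.166 per kb. Stricter peaks left 1320 WT-only and 322 βRapKO-only regions, since fewer peaks enter. The log2 ratio of tag density was 0.0459 with the sum in peaks, and the difference in the intronic share of tags ran from −0.477 to 0.00372 points without 1 library, turning above 0 without WT replicate 2. The cause of the remaining shifts was not tested.

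Libraries share only replicate numbers: deviations of same-numbered libraries correlated at 0.0417 over intronic regions. With the replicate block, 662 regions were lower and 400 higher at an unadjusted p under 0.05, 0 passed the FDR, and the block changed no call and no sign of a named region.

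Of 34 named regions tested, the log2 fold-change changed sign at 2 with TMM (Tek 0.0511, Atp6v1h 0.0397) and at 10 with the sum in peaks (Kcnq1 0.00288, Commd1 0.0513, Pclo 0.046, Igf1r 0.075, Kdm2b 0.046, Mbd5 0.0648, Tek 0.157, Eng 0.0893, Uxs1 0.00795, Atp6v1h 0.141). It changed at 8 with tags per kb (Herc3 0.0393, Glis3 −0.101, Acot7 −0.104, Setdb1 −0.225, Eng 0.10, Pecam1 0.161, Zfhx3 −0.74, Slc22a13 −0.179). Leaving out each library, the sign changed within −0.0371 to 0.0508 at Igf2r, −0.565 to 0.0424 at the Trappc9 control region, −0.275 to 0.060 at Pclo, −0.226 to 0.0511 at Igf1r, −0.276 to 0.0657 at Mbd5, −0.113 to 0.105 at Tek, −0.311 to 0.13 at Eng, −0.384 to 0.00446 at Pecam1 and −0.0678 to 0.0237 at Atp6v1h. The 6 regions with the smallest p kept their direction with TMM, the sum in peaks, the block and each library left out, where a lone library is assumed to vary like the other group. In first introns against introns from number 10, regions per Mb stood at a ratio of 1.45, and of 1.47 for regions called in all 4 libraries, an alternative chosen after seeing the data.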

Other observations

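Some groups of intronic regions were called more reproducibly than others. Of the 2685 whose summit window met the island criteria, 74.5% had a peak in all 4 libraries, against 33.5% of all intronic regions. Of the 2200 that overlapped an exon of a noncoding gene, 46.0% did, and of the 3447 with TGCCGC on either strand of the summit window, 49.6% did. Their median log2 fold-changes were −0.06, −0.06 and −0.06, close to −0.05 for all intronic regions tested. Of the 4009 regions over 75% repeat-masked, 55.6% had a peak in all 4 libraries, with a median log2 fold-change of −0.06. Of the 11064 under 10% masked, 26.2% did, with the same median of −0.06. The gap in median log2 CPM between the most and the least repeat-masked 20% of the regions was 0.32 and 0.28 for the WT libraries and 0.32 and 0.28 for the βRapKO libraries (replicate 1 first), so that same-numbered libraries were closer than those of 1 genotype (difference between genotypes 0.000761, two-sided exact permutation test, p = 1).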
